A study of Mus musculus with 6 samples.

Results

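Chemokines and cytokines are small secreted or membrane-bound proteins by which cells of an injured tissue call in and instruct other cells. Their transcripts were examined in muscle stem cells labelled as knockout for Setdb1, the enzyme that methylates histone H3 at a lysine linked to gene silencing, and in control cells. The set holds 43 genes chosen by name, of the 55487 genes in the count table, and all 43 were found in it by symbol. There were 12 CC chemokines, 11 CXC chemokines, the CX3C chemokine Cx3cl1, and 19 interleukins, colony-stimulating factors, growth factors and other cytokines. The rule that lists them uses gene names alone, but the list was drawn up with earlier results of these data known.

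RNA sequencing had been done on muscle stem cells of 10-week-old mice, 60 h after cardiotoxin (CTX), which destroys muscle fibres and so sets off regeneration. The 3 control libraries came from mice labelled as WT and given oil. The 3 KO libraries came from mice labelled as Setdb1 knockout and given tamoxifen, the drug used to switch on inducible recombinases. The column names of both groups carry SETDB1, so the control genotype rests on its label alone. Age, injury and time were shared by both groups, and labelled genotype and tamoxifen differed together, so their effects cannot be told apart. The labels name biological replicates 1 to 3 in each group but give no recombinase driver, deleted exon or cell sorting gate.

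In regenerating muscle, CC chemokines such as Ccl2 bind receptors on monocytes and bring them from the blood, and CXC chemokines of the Cxcl1 group do the same for neutrophils through Cxcr2. Cytokines of the interleukin-6 family signal through the shared chain Il6st to JAK kinases and STAT factors, while interleukin-1 and tumour necrosis factor act mainly through NF-kB. Many of these genes carry sites for NF-kB, for interferon-regulated factors or for AP-1 close to their start.

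The bases just upstream of the start are printed for 4 members on which the results below turn, 1 that was lower in every KO library, 2 that were higher in every KO library, and 1 abundant chemokine whose groups overlapped. Each sequence is the 250 bases before the annotated start, 5′ to 3′ on the strand of the gene, from RefSeq on GRCm38.p6. Capitals mark matches to 3 motifs, searched on both strands. They are the NF-kB motif (GGGA, any base, TT, any base, CC), the interferon-response motif (GAAA, any 2 bases, GAAA) and the AP-1 motif (TGANTCA).
Spp1, chr5:104434861-104435110, plus strand: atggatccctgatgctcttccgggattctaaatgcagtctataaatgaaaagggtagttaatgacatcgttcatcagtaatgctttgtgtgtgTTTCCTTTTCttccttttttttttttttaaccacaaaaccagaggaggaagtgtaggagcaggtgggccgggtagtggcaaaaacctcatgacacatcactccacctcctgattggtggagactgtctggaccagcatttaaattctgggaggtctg
Cxcl10, chr5:92348890-92349139, minus strand: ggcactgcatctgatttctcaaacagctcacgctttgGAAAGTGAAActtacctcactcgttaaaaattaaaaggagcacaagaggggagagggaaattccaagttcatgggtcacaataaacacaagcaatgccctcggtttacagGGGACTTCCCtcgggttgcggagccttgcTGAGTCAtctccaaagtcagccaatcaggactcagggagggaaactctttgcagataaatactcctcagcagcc
Cxcl14, chr13:56296552-56296801, minus strand: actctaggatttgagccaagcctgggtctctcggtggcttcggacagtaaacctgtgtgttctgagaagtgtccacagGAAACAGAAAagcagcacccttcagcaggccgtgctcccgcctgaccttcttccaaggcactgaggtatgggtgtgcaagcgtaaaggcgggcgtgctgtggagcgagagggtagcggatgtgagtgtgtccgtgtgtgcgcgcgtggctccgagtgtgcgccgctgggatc
Cxcl1, chr5:90890995-90891244, plus strand: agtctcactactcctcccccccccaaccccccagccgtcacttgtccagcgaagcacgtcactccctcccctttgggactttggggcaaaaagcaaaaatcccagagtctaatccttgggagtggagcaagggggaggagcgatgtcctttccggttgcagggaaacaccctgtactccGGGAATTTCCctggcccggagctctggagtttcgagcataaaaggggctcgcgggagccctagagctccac

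The Cxcl10 window held all 3 motifs, with GAAAGTGAAA from 213 to 204 bases upstream of the start, GGGACTTCCC from 103 to 94 and TGAGTCA from 74 to 68. The Cxcl1 window held the NF-kB motif as GGGAATTTCC from 71 to 62 bases upstream, and the windows of Cxcl2 and Cxcl3 held the same letters. The interferon-response motif was matched by GAAACAGAAA in Cxcl14, from 172 to 163 bases upstream. Spp1 had 2 windows, and only the printed one held this motif. There it was matched on the opposite strand by GAAAAGGAAA, from 157 to 148 bases upstream. Of the 43 genes, 29 had a window in the RefSeq table, in 32 windows. The others, Ccl2, Ccl7 and Cxcl5 among them, had no window and were not searched. The NF-kB motif occurred in 6 of the 32 windows (Csf1, Cxcl1, Cxcl2, Cxcl3, Cxcl10 and Il6) and in 0.98% of all 32851 windows of the same length. The interferon-response motif occurred in 3 member windows and in 2.98% of all windows. The AP-1 motif occurred in 6 member windows (Ccl9, Cxcl10, Il1a, Il6, Il11 and Lif) and in 6.75% of all windows. A match is a description of letters and not of a bound site, and the motifs were chosen with these sequences in view. Variants of the 3 motifs were not searched, so a window can hold sites that are not in capitals.

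Library totals ran from 4052569 to 5690844 counts, of which a single ribosomal RNA gene took 28.6% to 38.4%. Setdb1 itself was measured at 34.8, 40.5 and 32.1 CPM (counts scaled to a common library size, by TMM) in the controls and at 16.5, 12.7 and 14.7 CPM in the KO group. This was a log2 fold change of -1.30 (SE 0.16, edgeR adjusted p = 2.092e-04, n = 3 per group). KO library 1 stood apart from the rest, with a count for 30363 genes where the other 5 libraries had a count for 18737 to 19951. The neutrophil gene S100a8 had 2760 counts in control 3, 927 in KO 2 and 334 in KO 3, and 0 in the other 3 libraries. The summed level of 14 neutrophil markers, S100a9 and Ngp the most abundant, was 4.61, 3.97 and 2307 CPM in the controls and 5.85, 938 and 308 CPM in the KO libraries. Of these 14 markers, 3, 6 and 14 had counts in the controls and 8, 13 and 13 in the KO libraries. Neutrophils and macrophages make many chemokines, so member values are given library by library. All 12 muscle stem cell markers had counts in every library, led by Des and Sdc4, and their summed level was 1419, 1350 and 1325 CPM in the controls and 1934, 1633 and 1508 CPM in the KO libraries. Of the 12, 4 were higher at an unadjusted p of 0.05, beside 10.1% of all genes tested. The myogenic factor Myod1 was the 1 called higher, where 2.22% of all genes tested were. It had 142 ± 5.49 CPM in controls and 292 ± 63.4 CPM in KO libraries (log2 fold change 1.04, SE 0.15, edgeR adjusted p = 0.000779). The part of this difference in the member values was not tested.

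Of the 43 genes, 21 passed the filter on low counts (at least 2.08 CPM in at least 3 libraries), and 22 did not. At an adjusted p of 0.05, edgeR called 2.83% of the 11224 genes tested (249 or 2.22% higher and 69 or 0.615% lower in the KO group) and 0 of the 21 members. At an unadjusted p of 0.05, 5 members were higher and 1 was lower, where 10.1% of all genes tested were higher and 7.64% were lower. The 5 were Ccl2, Ccl7, Cxcl5, Cxcl10 and Cxcl14, and the 1 was Spp1. DESeq2 called 2 members, Cxcl14 higher and Spp1 lower, beside 2.32% of all genes, and limma-voom called 0, beside 1.78%. Without KO 1, edgeR called 0 members, beside 1.32% of all genes. Without the 3 libraries with S100a8 counts above 100, a fit of 2 controls against 1 KO library that assumes the lone KO library varies like the controls called Ccl2, Cxcl10 and Cxcl12 higher and Spp1 lower, beside 10.5% of all genes. The KO and control libraries did not overlap for 8 of the 21 tested members, which were Ccl2, Ccl7, Cxcl5, Cxcl10, Cxcl14, Tgfb1 and Tgfb2, all higher, and Spp1, lower. Over all genes tested the groups did not overlap for 24.3%, with 12.8% higher and 11.5% lower. The median log2 fold change was 0.23 over the 21 members and 0.01 over all genes tested. These are values of bulk cell samples, in which fewer cells of a type and less RNA per cell cannot be told apart.

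**Figure D1:**
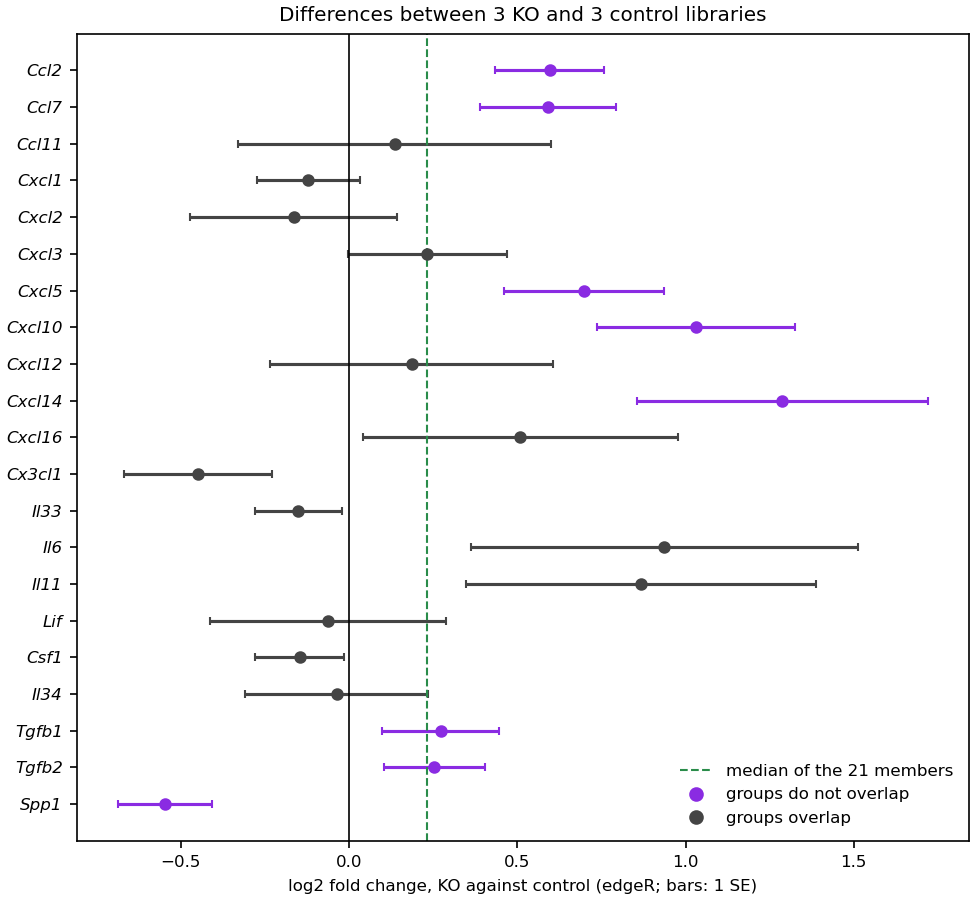
Log2 fold change, KO over control, with its SE (bars), for the 21 chemokine and cytokine genes tested, as estimated by edgeR; purple points are genes whose groups do not overlap, and the dashed line is the median of the 21. Cxcl14 and Cxcl10 lie farthest to the right at 1.29 and 1.03, and Spp1 lies farthest to the left at -0.55.

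The monocyte-attracting CC chemokines Ccl2 and Ccl7 had their lowest KO library above their highest control, but neither passed the adjusted threshold. Ccl2, the main ligand of the monocyte receptor Ccr2, lies at chr11:82035571-82037453. It was measured at 24.6, 25.3 and 35.5 CPM in the controls and at 41.5, 49.5 and 38.3 CPM in the KO group. The group means, with SD over 3 libraries, were 28.5 ± 6.08 and 43.1 ± 5.76 CPM, and the log2 fold change was 0.60 (SE 0.16, edgeR adjusted p = 0.0673). The adjusted p was 0.00943 without control 3, the library with the most neutrophil transcripts, and 0.278 at most when another library was left out. It was 0.0461 with the S100a8 and S100a9 level as a covariate.

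Ccl7, a neighbouring gene at chr11:82045712-82047525, encodes another ligand of Ccr2. Its values were 12.6, 8.77 and 15.7 CPM in the controls and 17.6, 20.3 and 18.2 CPM in the KO libraries. The KO libraries were the closer together, with an SD of 1.46 CPM against 3.47 CPM in the controls. The log2 fold change was 0.59 (SE 0.20, edgeR adjusted p = 0.145), or 0.39 without control 2. Ccl11, the eotaxin that attracts eosinophils through Ccr3, follows at chr11:82057823-82062955. It was measured at 8.61, 3.76 and 12.4 CPM in the controls and at 14.1, 7.60 and 6.25 CPM in the KO group. These groups overlapped, with a log2 fold change of 0.14 (SE 0.46, edgeR adjusted p = 0.917) that became -0.22 without control 2 and -0.26 without KO 1.

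The other 2 monocyte attractants on the list, Ccl8 and Ccl12, were close to absent. Ccl8 had 2, 1 and 3 raw counts in the controls and 0, 1 and 0 in the KO libraries. Ccl12 had 0 counts in all 6. The 10 CC chemokine genes of the list on chromosome 11 lie between positions 82035571 and 83664683, and only Ccl2, Ccl7 and Ccl11 were tested.

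Among the neutrophil-attracting CXC chemokines, which act through Cxcr2, Cxcl1 was the most abundant per kb of exon and Cxcl5 was the only one whose groups did not overlap. Cxcl1 (chr5:90891241-90893115) was measured at 134, 178 and 164 CPM in the controls and at 133, 179 and 125 CPM in the KO group. The log2 fold change was -0.12 (SE 0.15, edgeR adjusted p = 0.724). Cxcl5 (chr5:90759360-90761624) had 16, 23.4 and 23.5 CPM in the controls and 26.1, 46.6 and 28.9 CPM in the KO libraries. The mean was 21.0 ± 4.27 CPM in controls and 33.9 ± 11.1 CPM in KO libraries, with KO 2 well above the other 2. The log2 fold change was 0.70 (SE 0.24, edgeR adjusted p = 0.169). It was 0.39 without KO 2 and 0.35 without the 3 libraries with S100a8.

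Cxcl2 and Cxcl3, neighbours with related sequences, were less abundant than Cxcl1, at 2.89 and 2.51 against 81.2 CPM per kb of exon. Cxcl2 (chr5:90903871-90905938) was measured at 5.61, 7.31 and 6.10 CPM in the controls and at 4.52, 8.21 and 4.1 CPM in the KO group (log2 fold change -0.17, SE 0.31, edgeR adjusted p = 0.828). Cxcl3 (chr5:90786103-90789600) was measured at 8.61, 8.35 and 7.20 CPM in the controls and at 10.4, 11.1 and 7.04 CPM in the KO group (log2 fold change 0.23, SE 0.24, edgeR adjusted p = 0.654). For both genes the groups overlapped. Of the 50-base words in their exons, 5.84% of those in Cxcl2 and 4.24% of those in Cxcl3 also occur in another gene, so some reads could be assigned to more than 1 gene. Control 3, the library with the highest neutrophil marker sum (2307 CPM), had the highest level of none of these 4 genes. KO 2, with a neutrophil marker sum of 938 CPM, had the highest level of all 4. The part of neutrophils in these values was not tested.

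Cxcl10, an interferon-induced ligand of Cxcr3, a chemokine receptor of T cells, was low in every library and 2.04-fold apart between the groups. It lies at chr5:92346638-92348889, just downstream of the window printed above. Its values were 3.00, 3.76 and 4.43 CPM in the controls (15, 18 and 24 counts) and 9.58, 6.37 and 7.23 CPM in the KO libraries (36, 31 and 37 counts). The mean was 3.73 ± 0.715 CPM in controls and 7.72 ± 1.66 CPM in KO libraries, a log2 fold change of 1.03 (SE 0.29, edgeR adjusted p = 0.0785). Its exons overlap those of Art3, a gene on the opposite strand at chr5:92331827-92414628 that was named after its values were seen. Art3 had 4 counts in each control and 11, 18 and 13 in the KO libraries, and it was called higher (log2 fold change 1.92, SE 0.47, edgeR adjusted p = 0.0399). The strand setting of the counting is not given in the sources used here. Reads from the exon stretches where the 2 genes overlap therefore cannot be told apart, and their share of either count is not known.

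The genes named for the other interferon-induced ligands of Cxcr3, Cxcl9 and Cxcl11, did not pass the filter. The gene models used here class Cxcl9 as protein-coding but Cxcl11 as a polymorphic pseudogene. Whether Cxcl11 transcripts of these mice encode a working ligand was not tested. Cxcl9 had 1, 1 and 4 counts in the controls and 3, 2 and 4 in the KO libraries. Cxcl11 had 0, 1 and 0 counts in the controls and 10, 0 and 2 in the KO libraries, so KO 1, the library with counts for the most genes, supplied 10 of the 12. Scaled by library size, the KO to control ratio of Cxcl11 counts was 13.3 (95% exact interval 1.96 to 567), without KO 1 it was 3.04 (0.158 to 180) and without control 3 it was 8.54 (1.26 to 365).

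**Figure D2:**
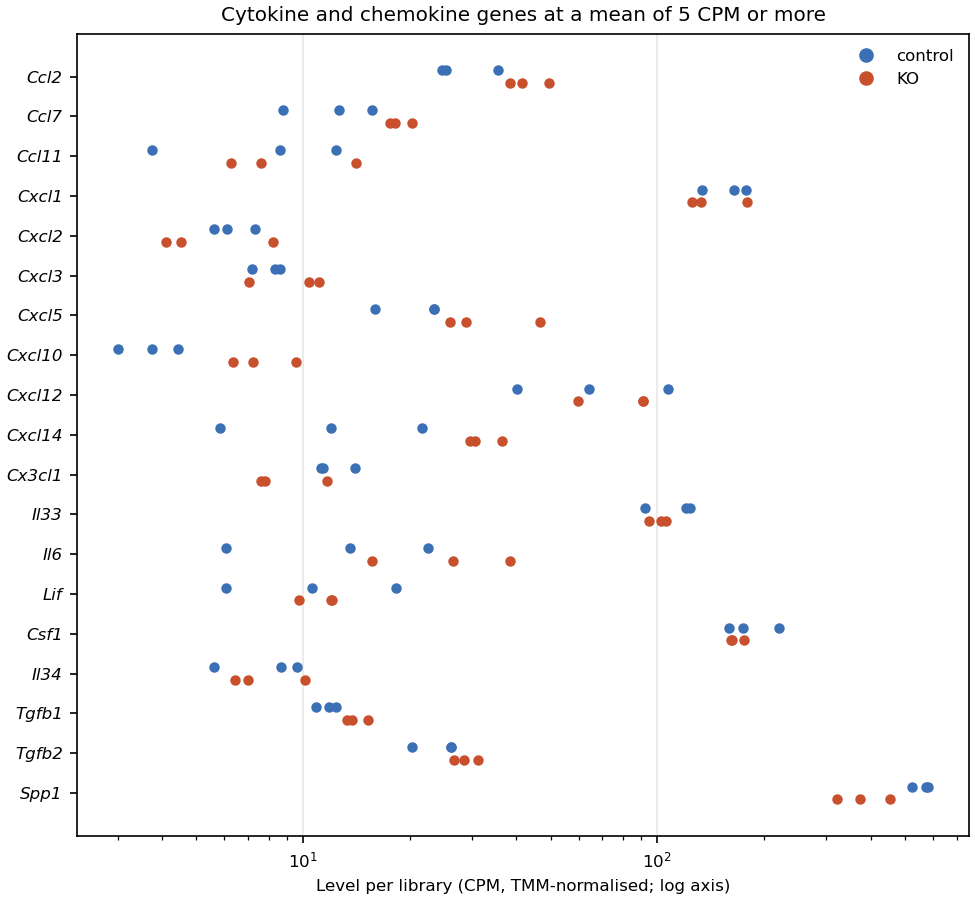
Level in each library (CPM, log axis) of the 19 tested members with a mean of at least 5 CPM, with a point for each library, controls in blue and KO in orange. Spp1 is the highest in every library, from 322 to 582 CPM, and its 3 KO points lie below its 3 control points.

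Cxcl14, a chemokine whose receptor is debated, had the largest log2 fold change of the 21 members. Its gene lies at chr13:56288643-56296551, next to the window printed above. It was measured at 21.6, 5.85 and 12 CPM in the controls and at 29.5, 36.3 and 30.7 CPM in the KO group. The KO libraries were close together at 32.2 ± 3.65 CPM, while the controls were spread out at 13.2 ± 7.95 CPM, with control 2 the lowest. The log2 fold change was 1.29 (SE 0.43, edgeR adjusted p = 0.220). The adjusted p was 0.00363 by DESeq2, 0.00302 in edgeR without control 1 and up to 0.405 with another library left out. Cxcl14 was called in only 3 of the 17 alternative settings.

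Cxcl12, the ligand of Cxcr4 and Ackr3 that guides migrating cells, varied widely within the controls. Its gene is at chr6:117168535-117181367. The controls had 64.3, 40.3 and 107 CPM and the KO libraries had 91.2, 91.0 and 59.8 CPM. The groups overlapped, and the log2 fold change of 0.19 (SE 0.42, edgeR adjusted p = 0.870) became -0.10 without control 2 and 0.62 without control 3. Cxcl16, a membrane-anchored ligand of Cxcr6 with a mean under 5 CPM, ranged from 1.20 to 2.40 CPM in the controls and from 1.64 to 2.74 CPM in the KO libraries (log2 fold change 0.51, SE 0.47, edgeR adjusted p = 0.613). Cx3cl1 (chr8:94772009-94782427), the membrane-anchored ligand of Cx3cr1, had 11.4, 14 and 11.3 CPM in the controls and 11.7, 7.80 and 7.62 CPM in the KO libraries. KO 1 lay within the control range and the other 2 KO libraries lay below it, with a log2 fold change of -0.45 (SE 0.22, edgeR adjusted p = 0.304).

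Cxcl13, the B cell attractant that binds Cxcr5, owed most of its counts to control 3. It had 0, 13 and 143 counts in the controls and 0 in every KO library, and control 1 was also at 0. Pooled over libraries, 156 counts against 0 put the KO group at least 47.0-fold lower against a floor of 3 counts over the group. Without control 3 the limit was 6.09-fold and rested on the 13 counts of control 2. Both limits cover counting error only and leave out the spread between libraries. Control 3 also had the highest summed level of the neutrophil and of the macrophage markers, though most of the macrophage markers were not highest in it. The part of these cell types in the value was not tested. The 12 lymphocyte markers summed to 0.801, 1.04 and 3.51 CPM in the controls and to 4.26, 3.49 and 2.15 CPM in the KO libraries, with Gzma and Trac among those at 0 in all 6. A filter on low counts had left Cxcl13 out of the test, and without the filter its edgeR adjusted p was 0.610.

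**Figure D3:**
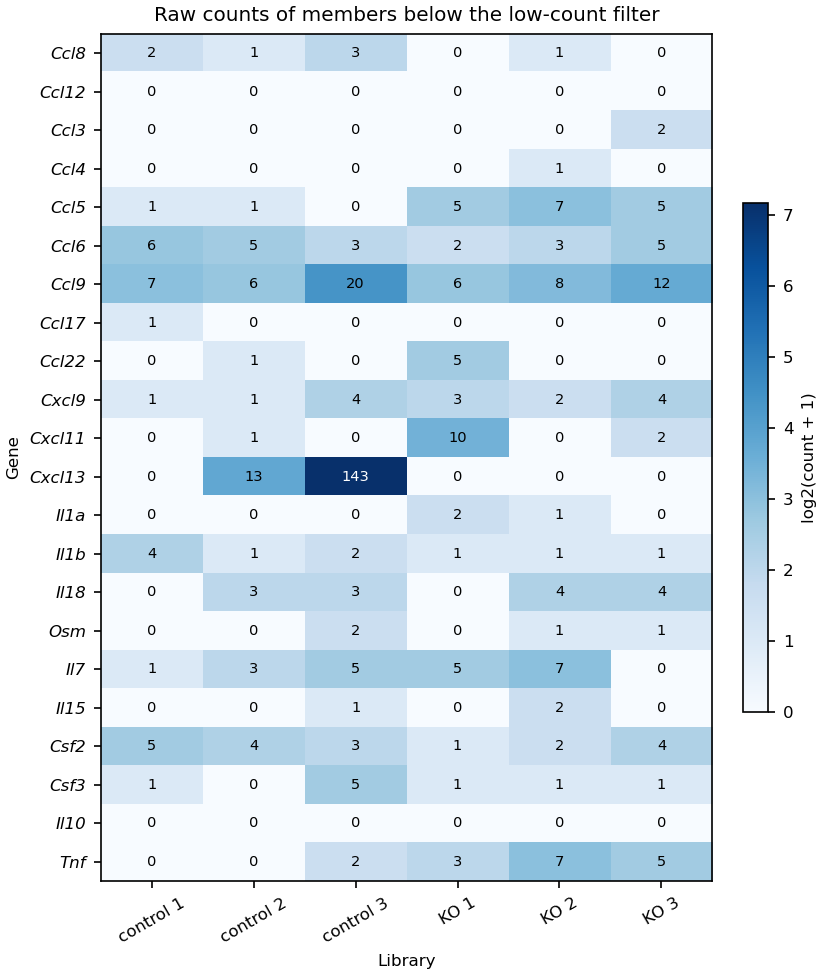
Raw counts in each library (columns) of the 22 chemokine and cytokine genes (rows) left out by the filter on low counts, with darker cells for higher counts on a log2 scale. Cxcl13 reaches 143 counts in control 3 and is at 0 in the KO libraries, and Ccl5 and Tnf have 17 and 15 counts in the KO group against 2 and 2 in the controls.

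The CC chemokines Ccl3, Ccl4, Ccl5, Ccl6 and Ccl9, which attract macrophages, T cells and other leukocytes, were all below the filter. Ccl5 (RANTES) had 1, 1 and 0 counts in the controls and 5, 7 and 5 in the KO libraries. Every KO library exceeded every control, and the ratio of scaled counts was 9.40 (95% exact interval 2.23 to 83.9), 9.13 (2.03 to 84.0) without KO 1 and 6.05 (1.44 to 54.0) without control 3. The interval covers counting error only, and edgeR run without the filter gave an adjusted p of 0.332. Ccl9 had 7, 6 and 20 counts in the controls and 6, 8 and 12 in the KO libraries. Ccl6 had 6, 5 and 3 against 2, 3 and 5. Ccl3 had 2 counts in KO 3 and 0 elsewhere, and Ccl4 had 1 count in KO 2 and 0 elsewhere. Ccl17 and Ccl22, ligands of Ccr4, another receptor of T cells, were also near 0. Ccl17 had 1 count in control 1, Ccl22 had 1 in control 2 and 5 in KO 1, and both had 0 elsewhere.

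Tumour necrosis factor, Tnf, the inflammatory cytokine made mostly by leukocytes, had 0, 0 and 2 counts in the controls and 3, 7 and 5 in the KO group. Scaled by library size, the ratio was 8.29 (95% exact interval 1.93 to 74.7), and without KO 1 it was 9.13 (2.03 to 84.0). Without control 3, which held both control counts, the lower limit of the ratio was 2.55. Without the filter edgeR gave an adjusted p of 0.473. Il10, the anti-inflammatory interleukin, had 0 counts in all 6 libraries.

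In the interleukin-1 family, Il33 was abundant and the other members were not. Il33 (chr19:29925114-29960718) encodes a nuclear alarmin that is released when cells are damaged and binds the receptor Il1rl1. It was measured at 92.1, 124 and 121 CPM in the controls and at 95.0, 102 and 106 CPM in the KO group. The groups overlapped, with a log2 fold change of -0.15 (SE 0.13, edgeR adjusted p = 0.585). Il1b had 4, 1 and 2 counts in the controls and 1 in each KO library, and Il1a had 2 in KO 1, 1 in KO 2 and 0 elsewhere. Il18 had 0, 3 and 3 counts in the controls and 0, 4 and 4 in the KO libraries.

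The interleukin-6 family was led by Il6, which muscle cells and macrophages make after injury. Il6 (chr5:30013114-30019981) was measured at 13.6, 6.05 and 22.5 CPM in the controls and at 15.7, 26.5 and 38.5 CPM in the KO group. The means were 14.1 ± 8.25 and 26.9 ± 11.4 CPM. KO 1 lay inside the control range, and the log2 fold change of 0.94 (SE 0.58, edgeR adjusted p = 0.480) did not pass. It was 0.58 without control 2, which had the lowest level, 0.58 without KO 3, and 1.46 without control 3.

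Lif (chr11:4257557-4272514), a growth factor for myoblasts, had 10.6, 6.05 and 18.3 CPM in the controls and 12, 12.1 and 9.77 CPM in the KO libraries. All 3 KO libraries fell within the control range, and the log2 fold change was -0.06 (SE 0.35, edgeR adjusted p = 0.951). Il11, a fibroblast cytokine with a mean under 5 CPM, ranged from 0.626 to 3.51 CPM in the controls and from 2.67 to 4.1 CPM in the KO libraries. It passed the filter with 1 control and 3 KO libraries (log2 fold change 0.87, SE 0.52, edgeR adjusted p = 0.408). The log2 fold change was 0.48 without control 2 and 1.83 without control 3. Osm, a leukocyte cytokine, had 0, 0 and 2 counts in the controls and 0, 1 and 1 in the KO libraries.

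Of the common gamma chain cytokines, which sustain lymphocytes, Il7 had 1, 3 and 5 counts in the controls and 5, 7 and 0 in the KO libraries. Il15 had 1 count in control 3, 2 in KO 2 and 0 elsewhere. Neither was tested.

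The macrophage growth factor Csf1 was the most abundant of the colony-stimulating factors per kb of exon. Csf1 (chr3:107741048-107760469) was measured at 220, 174 and 159 CPM in the controls and at 162, 162 and 175 CPM in the KO group (log2 fold change -0.15, SE 0.13, edgeR adjusted p = 0.606). The 3 KO libraries sat within the control range. Il34 (chr8:110741829-110805924), the other ligand of the Csf1 receptor, had 5.61, 9.60 and 8.68 CPM in the controls and 10.1, 6.98 and 6.45 CPM in the KO libraries, and again the groups overlapped (log2 fold change -0.04, SE 0.27, edgeR adjusted p = 0.963). Csf2 had 5, 4 and 3 counts in the controls and 1, 2 and 4 in the KO libraries. Csf3, the neutrophil growth factor, had 1, 0 and 5 counts in the controls and 1 in each KO library.

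Spp1, which encodes the secreted matrix protein osteopontin that binds integrins and Cd44, was the most abundant member and the only one of the 21 tested whose KO libraries lay wholly below the controls. Its gene is at chr5:104435118-104441050. The controls had 524, 574 and 582 CPM and the KO libraries had 322, 372 and 455 CPM. The means of 560 ± 31.6 and 383 ± 66.8 CPM gave a log2 fold change of -0.55 (SE 0.14, edgeR adjusted p = 0.0520). The adjusted p was 0.0326 without KO 3, up to 0.225 with another library left out, 0.0499 with upper quartile scaling and 0.00970 by DESeq2. Of its 50-base exon words, 11.6% also lie in the predicted gene Gm42793, which overlaps it on the same strand and had 7 counts in the controls and 5 in the KO libraries. Spp1 alone held 39.0% of the counts of the 43 genes. Without it, the summed level of the other members was 699, 685 and 804 CPM in the controls and 743, 834 and 727 CPM in the KO libraries, which overlap.

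Tgfb1 and Tgfb2 encode ligands of the TGF-beta receptors, which restrain myoblast growth and drive matrix production. Tgfb1 (chr7:25687002-25705077) had 11.8, 10.9 and 12.4 CPM in the controls and 13.3, 13.8 and 15.2 CPM in the KO libraries. Tgfb2 (chr1:186622792-186705989) had 26.2, 26.1 and 20.3 CPM in the controls and 28.5, 31.2 and 26.8 CPM in the KO libraries. The KO libraries of each lay above its controls by a small margin, with log2 fold changes of 0.27 (SE 0.17, edgeR adjusted p = 0.440) and 0.25 (SE 0.15, edgeR adjusted p = 0.401).

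Per kilobase of exon, the tested members spanned 286 CPM per kb for Spp1 to 0.656 for Cxcl16. Cxcl1 followed Spp1 at 81.2 CPM per kb, and Il33, Csf1 and Ccl2 came next at 36.9, 33.2 and 31.4 CPM per kb. Levels ran on from 19.4 CPM per kb for Ccl7 through Cxcl5, Cxcl14, Cxcl12 and Il6 to 8.12 for Ccl11, and the rest lay at or below 4.58, the level of Tgfb2.

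Some libraries were lowest or highest for many of these genes. Control 2 had the lowest level of the 6 libraries for 8 of the 21 members, Ccl7, Ccl11, Cxcl12, Cxcl14, Il6, Il11, Lif and Tgfb1, where it was lowest for 18.1% of all genes tested. KO 2 had the highest level for 8 of the 21, where it was highest for 12.9% of all genes tested. Control 2 also had the lowest summed level of 12 fibro-adipogenic markers (Col1a1 and Col1a2 the most abundant), which are cells of the connective tissue, with 916 CPM against 1961 and 1423 CPM in the other controls and 1691 to 2525 CPM in the KO libraries. All 12 markers had counts in every library, 10 were tested and 0 were called by edgeR, while DESeq2 called 1 and limma-voom 0. At an unadjusted p of 0.05, 2 were higher and 1 was lower, beside 10.1% and 7.64% of all genes tested. Macrophage markers (led by Lyz2 and Itgam) summed to 21.8, 11.7 and 107 CPM in the controls and to 14.9, 47.0 and 32.3 CPM in the KO libraries. In control 3 most of this sum was Lyz2, at 76.1 CPM, and Itgam, at 18.3 CPM. Lyz2, Itgam, Cd14 and C1qc were highest in control 3, and the other markers of this list were not. Pan-leukocyte markers (led by Laptm5 and Ptprc) summed to 4.21, 3.76 and 42.1 CPM in the controls and to 6.38, 23.6 and 8.79 CPM in the KO libraries. Lymphocyte markers were led by Nkg7 and Cd3e, with the sums given above. Endothelial markers (Eng and Tek) summed to between 5.85 and 18.9 CPM. Mural markers (Notch3 and Acta2) summed to 95.8 to 129 CPM in the controls and to 173 to 221 CPM in the KO libraries. Of these, 2 of the 6 tested, Acta2 and Tagln, were called higher by edgeR, beside 2.22% of all genes tested. The log2 fold change was above 0 for 5 of the 6. It was -0.002 for Rgs5, at 8.24 CPM in controls and 8.33 CPM in KO libraries. Myh11 and Kcnj8, which were not tested, had lower means in the KO group. The part of these cell types in the member values was not tested.

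**Figure D4:**
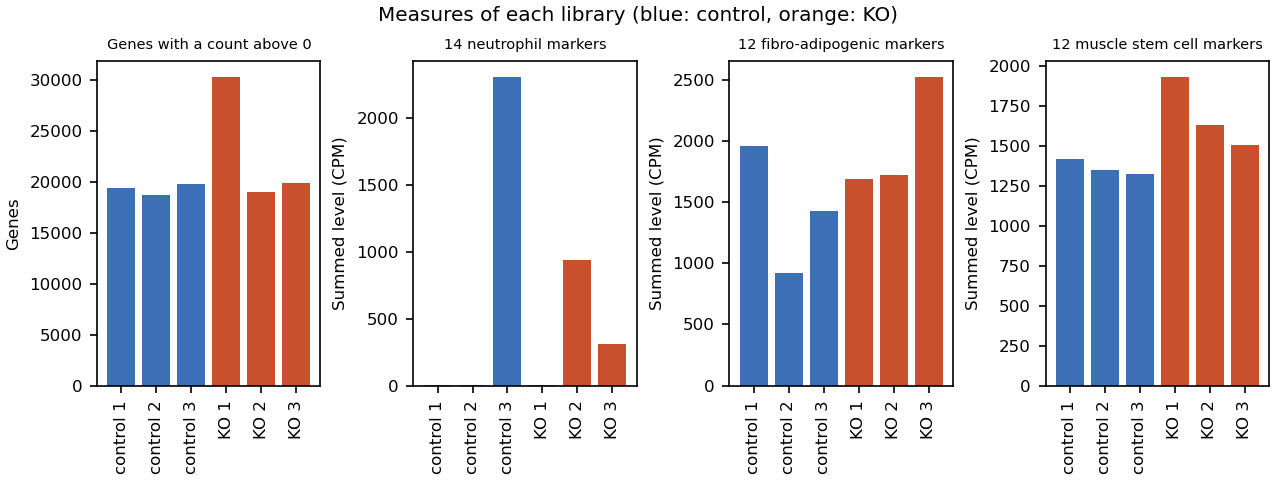
Bars give, for each library, the number of genes with a count and the summed level (CPM, linear axis) of neutrophil, fibro-adipogenic and muscle stem cell markers, controls in blue and KO in orange. KO 1 has a count for 30363 genes, and the neutrophil marker sum is 2307 CPM in control 3, 938 CPM in KO 2 and 308 CPM in KO 3, and below 6 CPM in the other 3 libraries.

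The receptors and pathway genes were then read in the same fit, since a ligand acts only where its receptor is made. Of 80 tested genes in 5 lists (chemokine receptors, cytokine receptors, NF-kB, JAK-STAT and TGF-beta pathways), 3 were called higher, Il1rl1 and Osmr among them, and 0 lower, where 2.22% of all genes tested were called higher. The median log2 fold changes of the 5 lists, in that order, were 0.107, 0.215, 0.0986, 0.195 and 0.021, beside 0.01 over all genes tested. Il1rl1 (chr1:40429570-40465415), the receptor of Il33, had 33.8, 19.0 and 23.1 CPM in the controls and 47.1, 42.5 and 53.4 CPM in the KO libraries. It rose from 25.3 ± 7.67 to 47.6 ± 5.45 CPM, a log2 fold change of 0.91 (SE 0.19, edgeR adjusted p = 0.0220), while its ligand did not pass. The call was lost without control 2, control 3, KO 1 or KO 3 (adjusted p 0.0661 to 0.147) without the 3 libraries with S100a8 (0.0705), and with library totals as the only scaling (0.0666).

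Osmr (chr15:6813577-6874969), the chain that pairs with Il6st to bind Osm, had 46.7, 34.7 and 44.5 CPM in the controls and 60.4, 64.1 and 56.9 CPM in the KO libraries. It rose from 41.9 ± 6.40 to 60.4 ± 3.60 CPM, a log2 fold change of 0.53 (SE 0.13, edgeR adjusted p = 0.0476). Its call was lost on leaving out any 1 library (adjusted p 0.0529 to 0.267), and with DESeq2 (0.110) or limma-voom (0.0798). Among all 17 alternative settings, Osmr was called in only 3. Of the 32 cytokine receptors, 21 were tested, and Il1rl1 and Osmr were the 2 called. At an unadjusted p of 0.05, 7 were higher and 1 was lower, beside 10.1% and 7.64% of all genes tested. Cd44, a receptor of osteopontin, had the highest CPM of them, at 917 ± 51.2 CPM in controls and 950 ± 61.6 CPM in KO libraries.

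**Figure D5:**
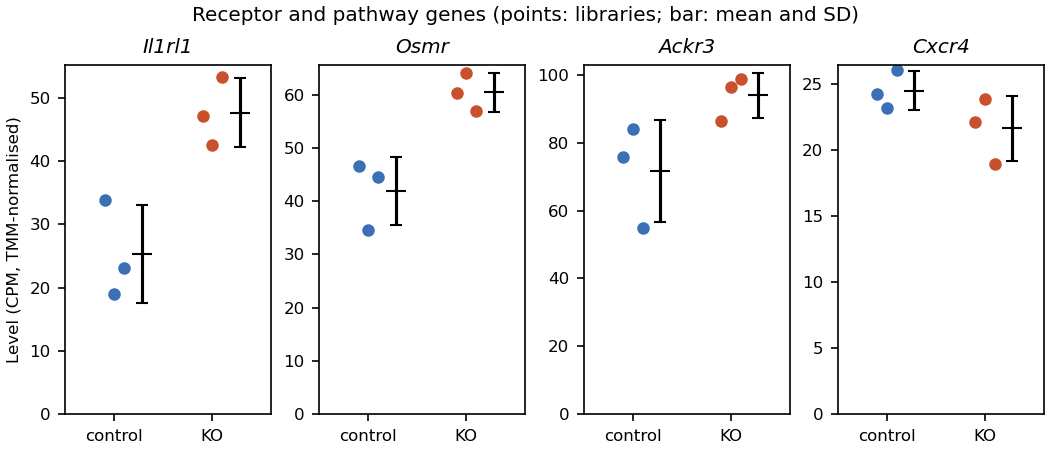
Level in each library (CPM, linear axis from 0) of Il1rl1, Osmr, Ackr3 and Cxcr4, with the mean and SD of 3 libraries beside the points. In Il1rl1 and Osmr, which were called higher, each KO point lies above each control point.

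Only 2 of 17 chemokine receptors were tested, and 0 were called by edgeR, DESeq2 or limma-voom. At an unadjusted p of 0.05, 1 was higher, beside 10.1% of all genes tested. That one was Ackr3, a scavenging receptor for Cxcl12, at 75.9, 83.9 and 54.9 CPM in the controls and 86.4, 96.5 and 98.9 CPM in the KO libraries (log2 fold change 0.40, SE 0.15, edgeR adjusted p = 0.177). Cxcr4, the signalling receptor of Cxcl12, had 24.2, 23.2 and 26.0 CPM in the controls and 22.1, 23.8 and 19.0 CPM in the KO libraries (log2 fold change -0.18, SE 0.15, edgeR adjusted p = 0.559). KO 1 had a count for all 17 of the chemokine receptors, and the other libraries for 8 or 9.

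In the NF-kB list, 25 genes were tested and 0 were called by edgeR, DESeq2 or limma-voom. At an unadjusted p of 0.05, 2 were higher, beside 10.1% of all genes tested. Nfkb1 had 123 ± 20.4 CPM in controls and 144 ± 7.10 CPM in KO libraries, and Nfkbia, the inhibitor that NF-kB itself induces, had 104 ± 1.85 and 114 ± 17.4 CPM. In the JAK-STAT list, 16 of 19 genes were tested and 0 were called by edgeR, DESeq2 or limma-voom. Here 1 was higher at an unadjusted p of 0.05, beside 10.1% of all genes tested. Jak1 had 124 ± 3.51 and 141 ± 6.79 CPM, and Ptpn11 had 81.9 ± 7.44 and 70.8 ± 6.17 CPM. Stat3, which carries the signal of Il6 family cytokines and was named after its values were seen, had 50.3, 43.2 and 61.0 CPM in the controls and 80.9, 75.2 and 65.1 CPM in the KO libraries. Its groups did not overlap, with a log2 fold change of 0.51 (SE 0.14, edgeR adjusted p = 0.0663).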

How the data were processed

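For 3 control and 3 KO libraries the authors deposited unnormalised counts, in whole numbers by Ensembl ID, and all 6 columns were used. The tools named in the submitters' processing notes are Salmon, STAR and DESeq2 1.34.0, with GRCm38 as the genome. The counting tool, strand setting and annotation release were not given in the sources used here. Labels name a stranded total RNA kit with ribosomal RNA removal and also a SMARTER mRNA kit, so the kit is unsettled, and rounded estimates could not be told from read counts. Symbols were found for 55141 of 55487 IDs, and the other 346 held 0.03% of the counts. The largest ribosomal RNA gene stayed in the library totals.

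Counts were tested two-sided with edgeR 4.0.16 in R 4.3.3 (quasi-likelihood, TMM, default low-count filter, group as the only term), adjusted by Benjamini-Hochberg over all 11224 genes past the filter, at 0.05. The SE was derived from the fold change and F. The fit was tested on simulated data. DESeq2 1.42.0, limma 3.58.1 (voom), other scalings and filters, a covariate for S100a8 and S100a9, and fits without each library were alternatives. Ratios of low counts carry exact 95% intervals, scaled by library size, and together with the floor of 3 counts they cover counting error only, since no molecular identifiers are named. No 2 libraries were copies.

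Every member is named. Members with a mean of at least 5 CPM or an unadjusted p under 0.05 have each library's value. Of each receptor or pathway list up to 4 called genes are named, or otherwise the 2 most abundant, and of each marker list the 2 most abundant. Some genes of these lists are not reported here. Gene coordinates and exon lengths came from GENCODE M21 on GRCm38. Members, lists and motifs were chosen with earlier results of these data known. The labels call the libraries biological replicates.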

Additional observations from a re-analysis of the deposited data

How the results depend on the processing

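Without a filter on low counts edgeR called 511 genes, limma-voom called 200, and the fit without the 3 libraries with S100a8 called 1282, against 318 (249 higher, 69 lower). Leaving out single libraries gave 152 to 345. For the members, 0 of 21 were called, and the share of all genes called stands in brackets. Upper quartile scaling gave 1 (2.86%), DESeq2 2 (2.32%), removal of structural RNA genes 2 (3.7%) and the S100a8 and S100a9 covariate 2 (4.14%). Without the filter, 4 of 41 members were called, beside 1.46% of 34908 genes. Leaving out single libraries gave 0 to 1 members, beside 1.32% to 2.98% of all genes. For the receptor and pathway genes, 3 of 80 were called, beside 2.83% of all genes. DESeq2 size factors gave 1 (2.92%), library totals 0 (2.01%), a minimum of 1 CPM 1 (2.39%) and limma-voom 1 (1.78%). Leaving out single libraries gave 0 to 4 of these genes. With the replicate number as a block, edgeR called 247 genes, 0 members and 1 receptor, Il1rl1. The same-numbered libraries were not shown to be pairs, since their deviations correlated at 0.14, -0.09 and -0.06, and 2 of 6 libraries correlated best with their own number.

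Without the filter, the adjusted p was 0.0372 for Ccl2, 4.77e-06 for Cxcl14, 0.0113 for Cxcl5 and 0.0129 for Spp1, and the median log2 fold change of all genes moved to 0.42. The log2 fold change of Lif turned to 0.050 with limma-voom, 0.025 with the replicate block and 0.47 without the 3 libraries, and that of Il34 turned to 0.36 without the 3 libraries. Leaving out single libraries moved Lif from -0.37 to 0.43, Il34 from -0.25 to 0.10, Ccl11 from -0.26 to 0.55, Cxcl12 from -0.10 to 0.62, Cxcl2 from -0.56 to 0.016, Il11 from 0.48 to 1.83, Cxcl5 from 0.39 to 0.85 and Il6 from 0.58 to 1.46. Count ratios of Ccl5, Tnf, Cxcl11 and Cxcl13 without KO 1 or control 3 were chosen after seeing the data, and that of Cxcl11 fell to 3.04 without KO 1. Of 357 member values under the alternatives, 325 kept their direction and side of the threshold. The cause was not tested. Of the 22 members below the filter, 18 had at most 20 counts over the 6 libraries, and their values carry the widest counting error.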

Other observations

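Cytokine and chemokine genes outside the 43 were looked up by symbol pattern after the results were known. Of 92 such genes (14 chemokine ligands, 29 interleukins, 14 TNF superfamily ligands, 19 interferons and 16 others), 8 were tested and 0 were called by edgeR or limma-voom, and DESeq2 called 1, Inhba. Inhba, which encodes the subunit of activin A, a TGF-beta family ligand, had 33.2, 15.9 and 31.2 CPM in the controls and 37.2, 46.2 and 71.9 CPM in the KO libraries. Its groups did not overlap, and its log2 fold change was 0.95 (SE 0.38, edgeR adjusted p = 0.278), the only one of the 8 at an unadjusted p under 0.05. Kitl, the stem cell factor that binds Kit, had 31.4 ± 1.73 CPM in controls and 25.6 ± 2.93 CPM in KO libraries (log2 fold change -0.29, SE 0.14, edgeR adjusted p = 0.296). Mif, a cytokine that many cell types store, had 106 ± 25.1 and 137 ± 22.0 CPM (log2 fold change 0.37, SE 0.17, edgeR adjusted p = 0.284).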
